A study of Homo sapiens with 7 samples.

Results

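CTCF peaks found in both control and pyridostatin-treated K562 cells were searched for the CTCF consensus, and 3586 of 24616 one-to-one shared peaks (14.6%, Wilson 95% interval 14.1 to 15.01) contained it. A shared peak was one-to-one when a control peak and a PDS peak overlapped by at least 1 bp and neither overlapped another peak of the other list, on chromosomes 1 to 22 and X. The consensus was sought on both strands in the 200 bp at the centre of the control peak. It is the 15-position CTCF consensus derived from chromatin immunoprecipitation with exonuclease digestion, with 7 fixed positions, 4 positions that accept a pair of bases and 4 that accept any base. The measured values that selected the members were thus the peak calls of both lists and the position of the control peak, and the comparison group was the 21030 one-to-one shared peaks without the consensus. The base sequence was not a readout, and strand and gene context were not used by the rule. Whether the peak calls themselves depended on sequence was not tested.

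K562 cells are an established line from a human leukaemia, and they were treated with pyridostatin (PDS), a small molecule that binds and stabilizes G-quadruplexes (G4s). The study used CTCF ChIP-seq to ask how CTCF occupancy looks under conditions that favour G4s. It had 7 samples, of which 3 came from untreated control cells (2 with the CTCF antibody, 1 with nonspecific IgG) and 4 from cells given 10 μM PDS for 24 h (2 with each antibody). All samples came from this single line, and each condition gave 1 peak list called on both CTCF replicates together, with 33094 control and 32917 PDS peaks. No value per replicate or read depth is held by the lists. No SD and no test between conditions can therefore be given from the lists alone, and all intervals below cover counting error over peaks only.

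CTCF is a DNA-binding protein with a row of zinc fingers, several of which read an asymmetric motif base by base. The motif has a direction, and CTCF bound to it stops cohesin, the ring complex that extrudes chromatin loops, mainly from one side. Loop anchors therefore often carry motifs that face each other, called convergent, whereas motifs pointing away from each other are divergent. Methylation of a CpG within the motif is known to weaken CTCF binding at many sites. Strength is given here as the fold enrichment over IgG and as the percentile of that fold within all peaks of a list, where 100 is the strongest peak. The folds of the lists rest on different IgG samples, so percentiles rather than folds were compared between them.

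The consensus allows 4096 different 15-base sequences, of which 958 occurred among the members. The most frequent are shown to illustrate what a typical member carries, with the capitals marking the whole consensus, read in its own direction.
Site in 56 members: CCAGCAGAGGGCAGC
Site in 47 members: CCACCAGGGGGCAGC
Site in 41 members: CCAGCAGAGGGCAGT
Site in 41 other members: CCAGCAGGGGGCAGC
Site in 38 members: CCACCAGGGGGCGCC
Site in 37 members: CCAGCAGGTGGCAGC
All 6 began with C, which the rule does not require, and they differed at other positions at which the rule allows several bases. The CCACCAGGGGGCGCC sites stood at a median control percentile of 85.2 and a median PDS percentile of 80.9, whereas the CCAGCAGAGGGCAGC sites stood at 56.0 and 71.3. A total of 431 sequences occurred in a single member, and 79 occurred in 10 or more members and together covered 1507 members. No 2 members shared an identical stretch of 75 bases around the site, so the set held no exact copies of this length.

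The next sequences show the consensus in capitals with 20 bases before and 10 bases after it, in the direction of the consensus, from the hg19 (GRCh37) genome. Coordinates are those of the 15 consensus bases. The first pair ranked high in the control list, at chr2:243153839-243153853 (minus strand, intergenic) and chr3:197633023-197633037 (plus strand, intron of IQCG), and the second pair high in the PDS list, at chr13:48669371-48669385 (minus strand, upstream of MED4) and chr14:54908211-54908225 (minus strand, upstream of CNIH1).
Chromosome 2 intergenic: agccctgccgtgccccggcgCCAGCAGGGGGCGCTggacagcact
IQCG intron: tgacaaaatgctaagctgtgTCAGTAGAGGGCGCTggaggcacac
MED4 promoter: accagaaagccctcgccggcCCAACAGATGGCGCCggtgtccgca
CNIH1 promoter: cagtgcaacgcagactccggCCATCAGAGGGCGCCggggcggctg
The chromosome 2 site equals, at all 15 positions, the sequence predicted from the specificity of CTCF zinc fingers 3 to 7, and 19 members carried that exact sequence.

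The consensus was concentrated at the peak centres in both lists. Over all one-to-one shared peaks, the 20 bp bins on either side of the control centre held 690 and 634 sites, while the outermost bins, at 280 to 300 bp, held 15 and 7. Around the PDS centre the central bins held 486 and 485 sites and the outermost 33 and 19. Smaller rises stood to either side, at up to 332 and 313 sites per bin around control centres and up to 374 and 362 around PDS centres, all between 60 and 100 bp away. Control peaks were wide by multiples of 60 bp and PDS peaks by multiples of 50 bp, so a centre is known only to this grid. Among members, the site lay wholly inside the control peak in 97.7%, which the rule fixes for all but the narrowest peaks, and wholly inside the PDS peak in 91.1%, where the overlap of the peaks favours it. The site was within 100 bp of the PDS centre in 2670 members (74.5%, 73.0 to 75.9), a share that the overlap with the control peak also favours. The 341 members with a site in the outermost 10 bp of the window had a median control percentile of 67.9, and the 247 peaks with a site up to 10 bp beyond it had 60.1.

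**Figure D1:**
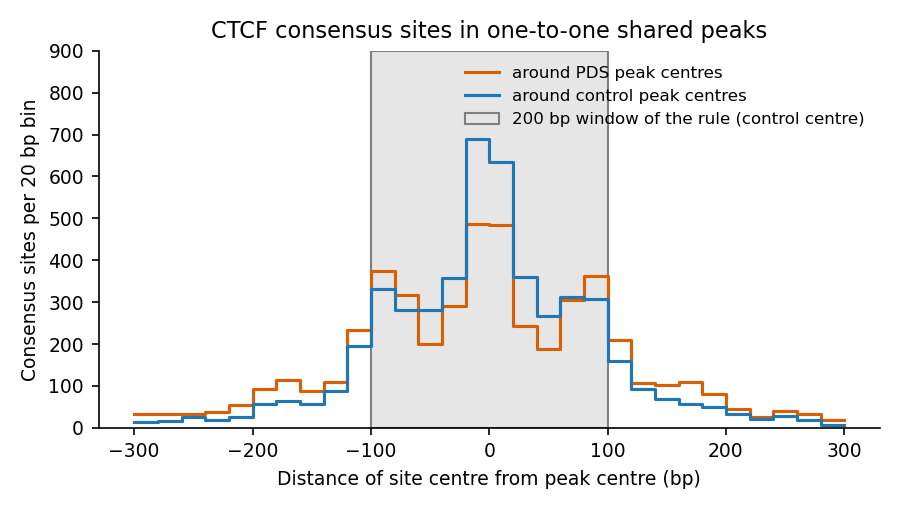
Number of CTCF consensus sites per 20 bp bin (y axis) by distance in bp from the centre of the control peak (blue) or PDS peak (orange), over all 24616 one-to-one shared peaks, with the 200 bp window of the rule shaded. Both profiles are highest at the centre, with up to 690 sites per bin around control centres and up to 486 around PDS centres.

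Around this central position the peaks were not symmetric with respect to the direction of the site. The peak centre lay on the 3′ side of the consensus in 2104 members in the control list (58.7%, 57.1 to 60.3) and on its 5′ side in 1452, and the median displacement was 10 bp to the 3′ side. In the PDS list it lay on the 3′ side in 2085 members (58.1%, 56.5 to 59.7) and on the 5′ side in 1485, with a median of 14 bp. The displacement did not follow one genome strand, since the 3′ share in the control list was 59.9% for sites on the plus strand and 57.4% for sites on the minus strand. In the 1157 members whose centres lay over 40 bp from the site in both lists, the centres were on the same side of it in 976 (84.4%, 82.1 to 86.3). The lists share no samples, but the peaks of a member overlap by construction. The labels call the reads single-end and the methods paired-end, and how fragments were placed around a site, which bears on the peak centre, is not known from the lists.

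The 3′ displacement was found in the narrow peaks. Control peaks of up to 180 bp had their centre on the 3′ side in 305 of 375 members (81.3%, 77.1 to 84.95), by a median of 45 bp. Those over 180 and up to 300 bp did so in 74.9% (71.8 to 77.8), by a median of 30 bp. At over 300 and up to 480 bp the share was 54.1% (51.2 to 57.0), and above 720 bp it was 42.3% (38.3 to 46.5). PDS peaks followed the same order, from 77.4% (73.2 to 81.1) in the narrowest class to 47.8% (44.5 to 51.0) in the widest. A CpG in the site made no detectable difference, with shares of 76.8% with and 77.05% without it in control peaks of 300 bp or less. In narrow shared peaks that lacked the exact consensus but held 1 site with a single mismatch, the centre was on the 3′ side in 70.9% (69.2 to 72.6) of 2828 control peaks and in 68.7% (67.0 to 70.4) of 2784 PDS peaks.

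**Figure D2:**
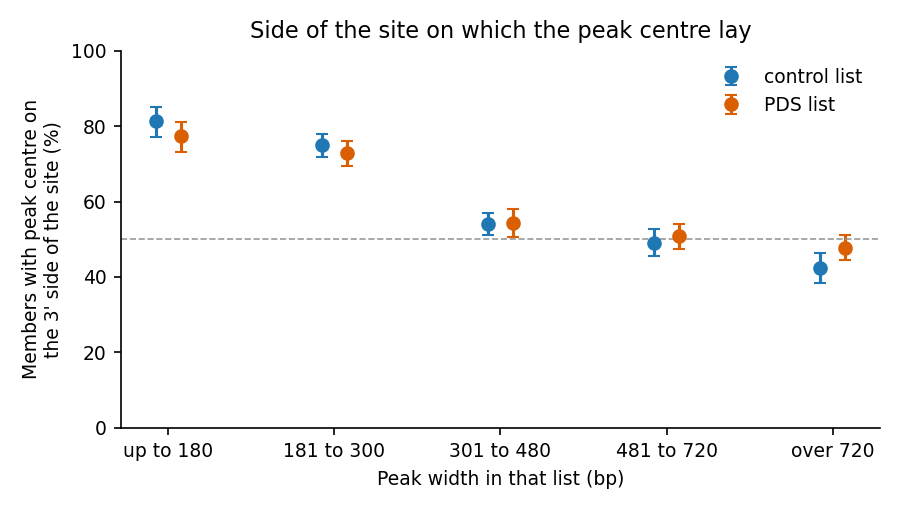
Share of members whose peak centre lay on the 3′ side of the consensus (y axis, %) by peak width in bp (x axis), for the control (blue) and PDS (orange) lists. Points are shares with Wilson 95% intervals and the dashed line marks equal sides, and the shares descend from 81.3% to 42.3% in the control list and from 77.4% to 47.8% in the PDS list.

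The positions at which the rule allows any base were far from even, whereas those limited to a pair of bases were closer to an even split. Position 1 was C in 71.4% of members, position 4 was C in 48.4% or G in 43.1%, and position 9 was G in 52.9% or T in 38.8%. Position 5 was less restricted, with C in 48.9% and T in 25.4%. Of the positions limited to a pair of bases, position 8 was G in 55.6%, position 14 was C in 53.6% and position 15 was split evenly, with T in 50.3%. A CpG at positions 12 and 13 was present in 1441 members (40.2%, 38.6 to 41.8), and the other members carried A at position 13. A CpG at positions 4 and 5 was present in 126 members (3.51%). Methylation was not measured here. The bases at positions 4 and 5 occurred most often as GC in 24.5% and CC in 21.2% of members.

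Outside the consensus, base preferences continued on both sides, where the rule had no part. Upstream, position -1 was G in 44.6%, position -3 was T in 40.4% and position -12 was T in 40.2% of members, while position -10 was C in 38.1% and position -17 was G in 37.9%. Downstream, position 16 was A in 41.5% and T in only 8.28%, position 19 was G in 46.7% and position 22 was C in 44.9%. Farther out, from position 26 to 55, no position exceeded 0.023 bits, the value at position 44, where C made up 30.1%. Members with a 14 bp core, an alternative CTCF motif also named in the study, were almost absent, at 1 of 3586 members and 11 of 21030 other shared peaks. Aligned with the consensus, the core has G where the consensus has a fixed A, so no single site can be both. The low count in members is thus partly set by the rule.

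**Figure D3:**
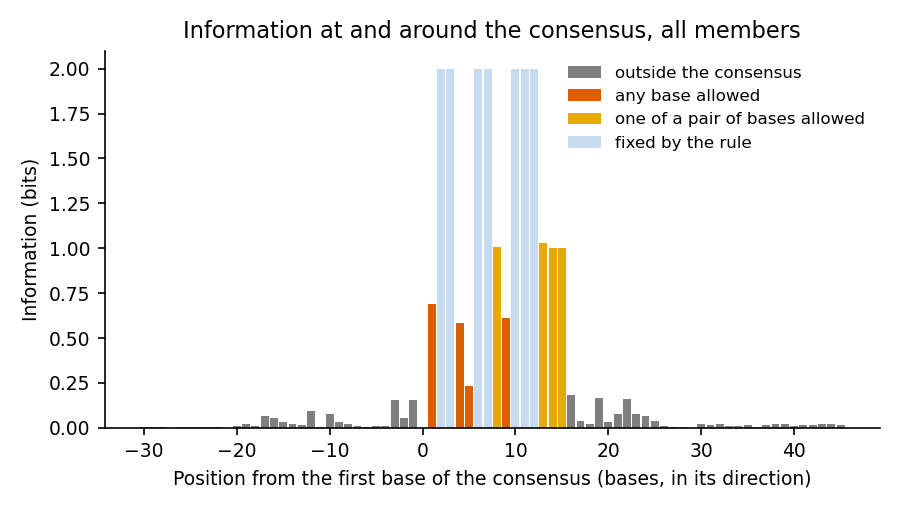
Information content in bits (y axis) at each position from 30 bases before to 45 bases after the first base of the consensus (x axis), over 3586 members and without letters. Fixed positions have 2 bits by the rule, the freely open positions 1, 4, 5 and 9 have 0.69, 0.58, 0.23 and 0.61 bits, and flanking positions such as -3, -1, 16, 19 and 22 rise above the rest of the flanks at 0.16, 0.16, 0.18, 0.16 and 0.16 bits.

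Both strands were used about equally. The site was on the plus strand in 1804 members (50.3%, 48.7 to 51.9) and on the minus strand in 1782. Strength did not separate the strands, with median control percentiles of 66.4 (64.7 to 68.7) and 65.2 (63.6 to 68.0) and median PDS percentiles of 69.9 and 68.1. A single site was present in 3552 members, and 34 had 2 or more, of which 7 had sites on both strands.

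Neighbouring members showed a distance-dependent orientation. The 3563 pairs of next neighbours were a median of 314 kb apart, with a median of 5 other control peaks between them. Over all distances, 899 pairs were convergent (25.2%, 23.8 to 26.7), 898 divergent (25.2%, 23.8 to 26.7) and 1766 on the same strand (49.6%, 47.9 to 51.2). Successive changes of strand along a chromosome alternate, so the totals of convergent and divergent pairs can differ by at most 1 per chromosome and their near equality is no result. The split by distance and the same-strand share are not fixed in this way. Among the 292 pairs under 30 kb apart, in contrast, 46 were convergent (15.8%, 12.02 to 20.4), 87 divergent (29.8%, 24.8 to 35.3) and 159 on the same strand (54.5%, 48.7 to 60.1). Below 10 kb, 73 of 118 pairs had both sites on the same strand (61.9%, 52.9 to 70.1). Between 10 and 30 kb the divergent share was 35.1% (28.4 to 42.4) and the convergent share 15.5% (10.9 to 21.6).

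Because the totals are tied, the convergent pairs missing at short distance had to be found at longer ones, and the following values are the counterpart of the former and not a separate result. Between 300 kb and 3 Mb, 454 of 1630 pairs were convergent (27.9%, 25.7 to 30.1) and 392 divergent (24.0%, 22.04 to 26.2). In the 199 pairs over 3 Mb apart the same-strand share was again high, at 57.8% (50.8 to 64.4), with 23.1% convergent and 19.1% divergent. Where no control peak lay between the neighbours, the convergent share was 16.9% (12.2 to 23.04) in 183 pairs under 30 kb and 30.5% (25.2 to 36.4) in 259 pairs at 30 kb or more. The divergent share of these pairs was 25.1% (19.4 to 31.9) and 26.3% (21.3 to 31.9), and the same-strand share 57.9% and 43.2%. At 30 kb or more the convergent and divergent intervals thus overlapped. In 907 pairs of which both members were above the members' median control percentile, 239 were convergent and 239 divergent, at 26.4% each. The neighbours with the shortest distance, named after the values were seen, were a convergent pair 888 bp apart in RRAGD, a GTPase of amino acid signalling, at chr6:90078008-90078910.

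**Figure D4:**
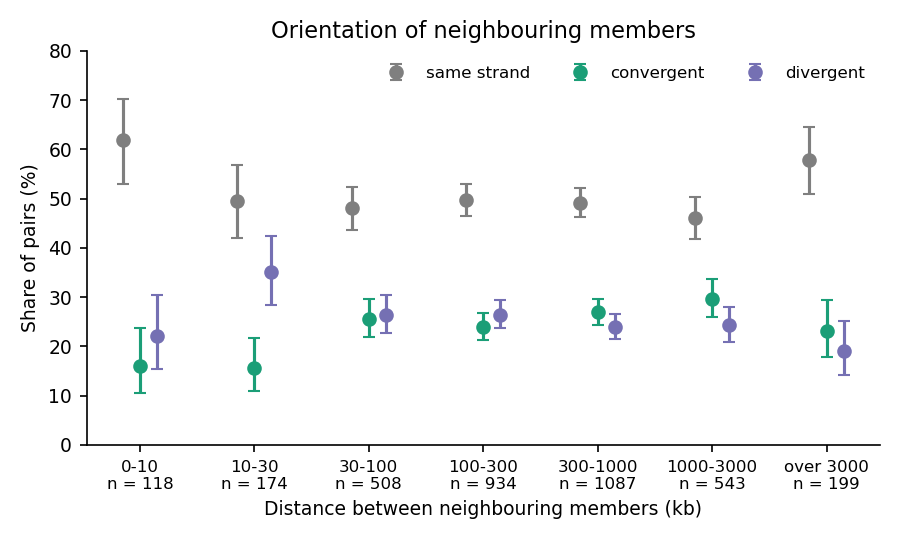
Share of neighbouring pairs (y axis, %) that were on the same strand (grey), convergent (green) or divergent (purple), by distance between the sites in kb (x axis, number of pairs below each class), with Wilson 95% intervals. Convergent pairs make up 15.5% at 10 to 30 kb and 29.7% at 1000 to 3000 kb, and divergent pairs 35.1% and 24.3%, while same-strand pairs are most frequent under 10 kb, at 61.9%, and over 3000 kb, at 57.8%.

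The strongest convergent pairs, chosen by the lower control fold at 20 kb to 1 Mb apart, lay on chromosomes 19 and 16. Their sites are printed to show both arms of each pair, each in the direction of its own consensus. The first pair was at chr19:13991024-13991038 (plus strand, intron of NANOS3, a germ cell RNA-binding protein) and chr19:14517153-14517167 (minus strand, coding exon of ADGRE5, a leukocyte adhesion receptor), 526 kb apart with 23 control peaks between. The second was at chr16:761891-761905 (plus strand, upstream of METRN, a secreted neural factor) and chr16:791102-791116 (minus strand, in CIAO3, a factor of iron-sulfur protein assembly), 29.2 kb apart with 6 control peaks between.
NANOS3 intron: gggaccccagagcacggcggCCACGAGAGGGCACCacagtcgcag
ADGRE5 exon: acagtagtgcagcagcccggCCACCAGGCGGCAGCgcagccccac
Upstream of METRN: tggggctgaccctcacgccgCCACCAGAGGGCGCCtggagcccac
CIAO3 intron: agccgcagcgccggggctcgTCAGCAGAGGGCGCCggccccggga
The NANOS3 site stood at percentile 99.3 in the control and 99.6 in the PDS list, and the ADGRE5 site at 99.5 and 83.8. The METRN and CIAO3 sites stood at 98.3 and 97.3 in the control list and at 73.1 and 21.0 in the PDS list. These sites were picked by control fold, and by p-value the picture differed, since their percentiles shifted by -2.06 points at NANOS3, 6.73 at ADGRE5, 12.5 at METRN and 6.99 at CIAO3. The third pair, upstream of CAMSAP3 and at CTXN1 on chromosome 19, was 357 kb apart and had control percentiles of 97.9 and 97.3 and PDS percentiles of 88.9 and 25.1. The CTXN1 site shifted by -72.2 points by fold but by 14.9 by p-value.

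Members lay away from gene starts more often than other shared peaks did. The control peak centre was within 1 kb of a gene start in 313 members (8.73%, 7.85 to 9.70) against 18.2% (17.7 to 18.8) of the others, a difference of -9.51 percentage points (-10.5 to -8.41). For protein-coding genes alone the shares were 5.27% and 14.4%. Introns held 46.8% of members against 43.3% of the others, and intergenic sequence 34.8% against 28.8%, so both were higher among members, by 3.53 points (1.77 to 5.30) and 6.004 points (4.34 to 7.69). Exons outside promoters held 9.62% and 9.65%, which differed by less than counting error. The median distance to the nearest gene start was 17060 bp for members and 11072 bp for the others. Within introns the site pointed in the direction of transcription in 48.6% of 1569 members (46.2 to 51.1), and at promoters in 56.2% of 276 (50.3 to 61.9).

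Promoter members were the strongest class in the control list. Their median control percentile was 81.1 (77.2 to 83.7), against 64.7 in exons, 63.9 in introns and 65.7 in intergenic sequence. In the PDS list the median percentile of promoter members, 66.8 (61.9 to 71.3), was no longer above those of exons, 66.9, introns, 68.1, and intergenic sequence, 71.3. Other shared peaks at promoters went from 67.4 to 48.4. By p-value the direction was the opposite. The median shift of promoter members was -8.00 points (-11.8 to -3.44) by fold but 2.07 (1.02 to 4.43) by p-value, and that of other promoter peaks -9.60 by fold but 4.02 by p-value. Over all one-to-one shared peaks the median shift was 0.68 points by fold and 2.30 by p-value. By p-value promoter members were thus near the value of all shared peaks. Promoter members had a median GC content of 63%, against 52.5% in introns, and its part in these shifts was not tested. Strong promoter members by control fold lay near UBE4B (ubiquitin chain assembly), MED4 (a Mediator subunit of RNA polymerase II transcription), CNIH1 (cargo export from the endoplasmic reticulum), ATP6V1D (a proton pump subunit), NCBP3 (mRNA cap binding) and MRPL17 (a mitochondrial ribosomal protein). Their control percentiles ranged from 99.4 at MRPL17 to 99.9 at UBE4B. In the PDS list MED4 stood at 99.98, CNIH1 at 99.97, NCBP3 at 99.6, ATP6V1D at 98.5 and MRPL17 at 98.0, whereas UBE4B stood at 73.0. Of these 6, UBE4B was thus the member that moved by 25 points or more. In all 6 the site was on the minus strand, although UBE4B is transcribed from the plus strand and the other genes from the minus strand. Over all members 49.7% of sites were on the minus strand, and these 6 were picked by control fold, so no strand preference is read from them.

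Members were stronger peaks than other shared peaks in both lists. The median control fold was 32.4 (31.8 to 33.3) for members and 28.7 (28.5 to 28.9) for the others, and the median PDS fold was 20.7 (20.4 to 21.0) and 18.1 (17.9 to 18.2). As percentiles these were 65.8 (64.6 to 67.7) against 56.6 in the control list and 69.0 (67.7 to 70.3) against 57.4 in the PDS list. More than the median moved, since 52.6% of members and 38.6% of the others were in the stronger 50% of both lists, a difference of 13.9 points (12.2 to 15.7). Members still spanned a wide range, from a control fold of 5.17 to one of 221. The weaker 50% of both lists held 14.6% of members and 24.7% of the others.

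The strongest member of the control list was at chr17:43212784-43212798 (plus strand, in an untranslated region of ACBD4), with a fold of 221 and rank 2 of all control peaks. It had 2 consensus sites and a CpG, and its PDS fold of 46.4 was at percentile 98.8. The next 4 in the control list, namely the TBC1D22B intron, the chromosome 2 and IQCG sites printed above and a site 55355 bp from PCBP1, an RNA-binding protein gene, had control folds of 184 to 150. Their PDS percentiles ranged from 95.4 to 98.9. The sixth, at UBE4B, had a control fold of 137 and a PDS percentile of 73.0. Of the 6 strongest members of the PDS list, 4 lay near the starts of MED4, CNIH1, RPLP0, a ribosomal stalk protein, and CA13, a carbonic anhydrase, and the others were intergenic, 19316 bp from the start of MISP and 42007 bp from that of APOL3, the nearest protein-coding genes. Their PDS folds ranged from 79.6 at CA13 to 101 at MED4. In the control list the members at MED4 and CNIH1 and the one nearest to APOL3 were also above percentile 99, that nearest to MISP was at 97.9 and CA13 at 89.3, whereas RPLP0 was at 64.4. By fold, UBE4B and RPLP0 thus ranked lowest in the other list, with shifts of -26.8 and 35.5 points, but by p-value they shifted by 5.63 and -7.35 points.

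The share of shared peaks with the consensus rose with fold. It was 8.08% (7.07 to 9.23) in the weakest decile by control fold and 18.9% (17.4 to 20.5) in the strongest, and 6.42% (5.52 to 7.46) and 20.6% (19.1 to 22.3) by PDS fold. In peaks that were in the weakest quartile of both lists the share was 6.97%, and in the strongest quartile of both it was 20.8%. With peaks ordered by p-value the rise stopped early, at 17.5% in the seventh decile and 17.2% in the strongest decile of the control list. In the PDS list it fell from 17.6% in the ninth decile to 15.4% (14.1 to 16.9) in the strongest. Even among the strongest peaks, therefore, the exact consensus was found in a minority, while 46.1% of all shared peaks held a site with at most 1 mismatch.

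**Figure D5:**
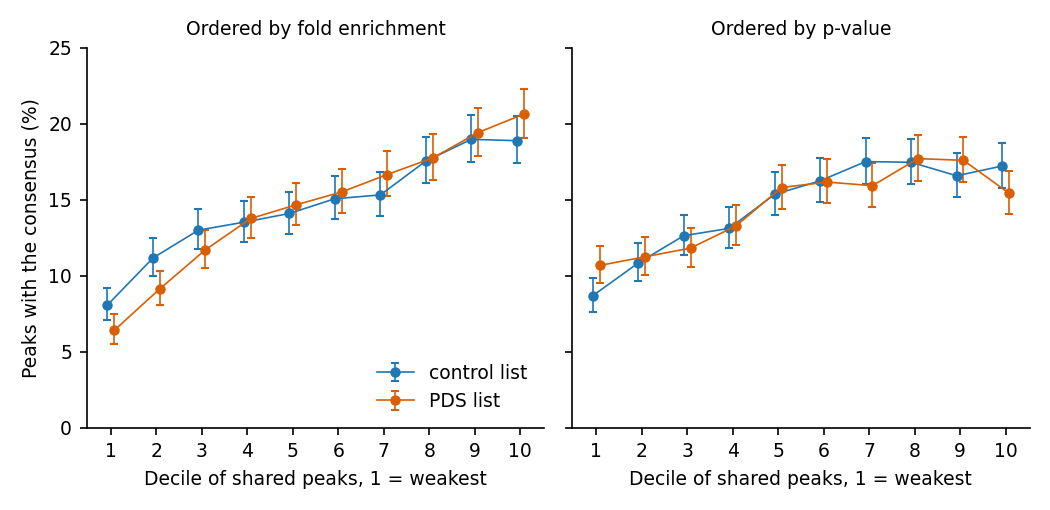
Share of one-to-one shared peaks with the CTCF consensus (y axis, %) in deciles of these peaks from weakest (1) to strongest (10), ordered by fold (left) or p-value (right) in the control (blue) and PDS (orange) lists, with Wilson 95% intervals. By fold the share climbs from 8.08% to 18.9% (control) and from 6.42% to 20.6% (PDS), and by p-value it levels off.

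The difference in strength between members and other shared peaks was present at each level of GC content. In the lowest quartile of GC content of the 200 bp window, up to 47.5%, the median control percentile was 52.7 for members and 45.1 for the others. In the highest, 62% and more, it was 83.5 and 70.6. PDS percentiles were 62.2 and 56.8 in the lowest quartile and 69.6 (66.0 to 72.3) and 44.3 (42.4 to 46.0) in the highest, the wider gap of these. The consensus was carried by 14.96% of shared peaks in the lowest and 11.98% in the highest GC quartile.

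Within members, the sequence of the site went along with strength. Members that matched the zinc finger prediction at 6 to 8 of the 8 variable positions had a median control percentile of 71.4 (68.4 to 73.9), compared with 62.8 (60.0 to 67.1) for 0 to 2 matches. In the PDS list the medians were 71.3 (68.9 to 73.2) and 65.5 (62.9 to 69.5). GC content moved with the matches, from a median of 49.5% at 0 to 2 matches to 58% at 6 to 8, and its part was not tested. The 19 members with all 8 matches reached 81.2 in the control list, with a wide interval of 40.02 to 93.3. In the PDS list they stood at 70.2 (49.6 to 94.5), not above the 71.3 of all members with 6 to 8 matches. Members with a CpG at positions 12 and 13 stood at 71.4 (69.3 to 73.4) in the control list and those without at 62.7 (60.8 to 64.4), and at 72.4 and 66.5 in the PDS list. GC content moved with the CpG, as windows with it had a median GC content of 56.5% and those without 51.5%. In quartiles of the members' GC content, from lowest to highest, the control percentiles with and without the CpG were 54.96 and 52.4, 62.3 and 62.7, 71.3 and 64.7, and 85.6 and 78.3. The PDS percentiles were 65.7 and 60.99, 73.7 and 67.5, 80.5 and 71.5, and 71.3 and 70.5. The gap was thus small in the lower quartiles of the control list and in the highest quartile of the PDS list. At position 4, which the prediction gives as G, members with C were higher than those with G, at 70.2 (67.8 to 72.0) and 63.5 (61.9 to 65.4) in the control list.

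Fold ranks moved considerably between the lists in single members, in both directions. By fold, 758 members (21.1%) stood 25 or more percentile points higher in the PDS list, against 21.2% of all one-to-one shared peaks, and 573 (16.0%) stood 25 or more points lower, against 19.7%. The first share was close to the background, and the second differed by -4.41 points (-5.69 to -3.06) from the 20.4% of peaks without the consensus. By p-value the pattern was the reverse, with rises of 25 points or more in 5.02% of members and 7.88% of the others (-2.86 points, -3.62 to -2.02) and falls in 6.66% and 6.70%. The median shift was 1.95 points (1.07 to 2.89) upwards in members and 0.49 (0.12 to 0.80) in the others. By p-value the order was the opposite, at 1.19 points (0.52 to 1.73) in members and 2.50 (2.28 to 2.80) in the others. Folds of the lists correlated with a Spearman rho of 0.41 over the 3586 members and also 0.41 over the other shared peaks. These points share the genome position and base composition, and the correlation is given as a description. Ranks by p-value correlated more closely, at 0.79 in members and 0.80 in the others.

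Members with the greatest shifts by fold are shown with their sites, because the 2 strength measures parted company in them. The rises were at chr15:74200805-74200819 (minus strand, exon of LOXL1-AS1, a long noncoding RNA), chr2:206640963-206640977 (plus strand, coding exon of NRP2, a semaphorin and growth factor co-receptor) and chr10:120610168-120610182 (minus strand, intron of LINC03036). The falls were at chr15:22511243-22511257 (plus strand, intergenic), chr11:555072-555086 (plus strand, coding exon of LMNTD2) and chr10:5336417-5336431 (minus strand, intergenic).
LOXL1-AS1: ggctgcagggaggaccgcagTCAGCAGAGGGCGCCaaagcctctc
NRP2: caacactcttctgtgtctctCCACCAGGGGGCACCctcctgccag
LINC03036: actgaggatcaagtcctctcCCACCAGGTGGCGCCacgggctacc
Chromosome 15 intergenic: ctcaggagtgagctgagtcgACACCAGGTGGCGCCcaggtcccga
LMNTD2: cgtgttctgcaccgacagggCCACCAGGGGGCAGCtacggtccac
Chromosome 10 intergenic: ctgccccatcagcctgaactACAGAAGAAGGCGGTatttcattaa
At LOXL1-AS1 the control fold was 13.3 and the PDS fold 36.4, so that the percentile shifted by 82.5 points when ranked by fold and by -16.8 when ranked by p-value. NRP2 rose on both measures, by 81.0 points by fold and 29.5 by p-value. LINC03036 rose by 80.4 points by fold and shifted by -9.41 by p-value. The chromosome 15 intergenic site went from a fold of 69.1 to 7.61, a shift of -90.8 points by fold but 13.99 by p-value. At LMNTD2 the shifts were -80.5 and 6.01, and at the chromosome 10 site they were -79.4 and 16.9. The sign was thus the same by both measures at NRP2 alone among these 6.

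A G4 motif (on either strand, 4 G runs of 3 or more bases joined by loops of 1 to 7 bases) was in the window of 263 members (7.33%, 6.53 to 8.23) and of 9.26% (8.88 to 9.66) of the other shared peaks, a difference of -1.93 points (-2.83 to -0.95). The share of members depended on the definition, and was 15.6% over the whole control peak and 14.3% in the window with loops of up to 12 bases. The other shared peaks were not searched with these definitions, so whether the difference holds under them was not tested. The G runs were on the strand of the consensus alone in 134 of the 263, on the other strand alone in 125 and on both in 4, and the motif overlapped the consensus in 25. Members with a G4 motif had a median control percentile of 75.6 (73.1 to 79.9) and a PDS percentile of 63.2 (57.7 to 68.1), whereas those without had 65.1 and 69.5. Their median shift was -7.65 points (-12.1 to -2.32) by fold and 4.88 (2.78 to 6.70) by p-value, so the direction depended on the measure. Members without the motif shifted by 2.48 points by fold and 0.70 by p-value.

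GC content moved with the G4 motif, at a median of 65.5% in members with it. Median control percentiles in the highest GC quartile of shared peaks were 79.4 (75.4 to 83.1) with it and 85.1 (82.9 to 86.8) without. In the third quartile they were 73.1 and 69.4, in the second 60.6 and 62.7, and in the lowest 22.9 and 52.7. Members with the motif were thus higher in the control list in the third quartile alone. In the highest GC quartile of shared peaks the median shift by fold was -14.5 points (-20.8 to -9.01) in 172 members with a G4 motif and -6.69 (-9.98 to -4.57) in 551 without. In the third quartile, 54.5 to 61.5% GC, it was 1.61 (-8.11 to 5.81) in 59 members with the motif and 3.36 in 874 without. The order was the other way round at lower GC content, where few members had the motif. In the second quartile it was 14.03 (4.50 to 40.3) in 24 members with the motif and 5.55 in 951 without, and in the lowest it was 25.4 (7.74 to 64.8) in 8 with and 5.16 in 947 without. The highest quartile was the one in which members as a whole went down by fold, with a median shift of -8.70 points, and the median of other shared peaks there was -15.2 points. By p-value members shifted by 5.43 points in the highest and -6.39 in the lowest quartile, and in the highest the shifts were 4.91 with and 5.56 without the motif. Whether G4s, GC content or the IgG samples of the conditions account for these shifts was not tested.

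At loci known for CTCF, the members nearest to the named genes stood between percentiles 71.8 and 98.8 in the control list and between 44.7 and 97.3 in the PDS list. In an intron of NPRL3, a gene that harbours distal regulatory elements of the alpha-globin genes, the member at chr16:157204-157218 (plus strand) had folds of 42.3 and 39.7 and percentiles of 81.6 and 97.3. In the HOXA cluster of body-axis regulators, the member at chr7:27200754-27200768 (minus strand), upstream of HOXA7 at -3206 bp from its start, had percentiles of 98.8 and 77.6. The other nearest members lay farther from the genes and are not shown to belong to those loci. With positions counted from the start of the named gene along the chromosome, they were at -50839 bp for H19, an imprinted noncoding RNA, at -105145 bp for HBB, a beta-globin gene, at -107597 bp for PCDHA6, a clustered protocadherin, and at 362386 bp for HOXD13. The H19 member had percentiles of 81.4 and 57.1 and the HBB member 80.5 and 96.8. The PCDHA6 member went from 94.8 to 44.7 and the HOXD13 member from 71.8 to 49.2. The sites of the NPRL3 and HOXA7 members are printed as those within or beside the cluster or gene concerned.
NPRL3 intron: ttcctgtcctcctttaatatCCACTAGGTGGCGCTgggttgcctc
Upstream of HOXA7: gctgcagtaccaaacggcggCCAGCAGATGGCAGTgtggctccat
By fold the NPRL3 and HOXA7 members shifted by 15.7 and -21.3 points, whereas by p-value they shifted by -10.1 and 10.1 points. The p-value shifts of the others were 14.7 points for H19, -33.3 for HBB, 0.21 for PCDHA6 and 5.07 for HOXD13. In all 6 the shift by p-value thus had the opposite sign to the shift by fold.

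Arrays of sites within single windows stood near immunoglobulin heavy chain variable (IGHV) segments, the gene pieces joined in antibody genes. Of the 7 members with 3 or more sites, 6 were on chromosomes 14 and 15. The 4 on chromosome 14 lay 236 to 879 bp from the nearest IGHV segment, at IGHVIII-5-2, IGHVIII-26-1, IGHVIII-38-1 and IGHVIII-67-3, and the 2 on chromosome 15 lay 4815 and 3874 bp from IGHV1OR15-3. The remaining one, with 4 sites, was in an intron of WWC3 on chromosome X, with percentiles of 82.9 and 99.9 by fold, a shift of 17.0 points, but a shift of -50.9 points by p-value. Between the outermost IGHV segments of chromosome 14, all 127 of which are on the minus strand, 10 of 21 shared peaks were members and all 10 had their site on the minus strand. The sites therefore had the same direction as the segments. Their control percentiles ranged from 3.98 to 89.8 with a median of 64.4, and their PDS percentiles from 3.08 to 94.3 with a median of 72.1, so the group held both weak and strong peaks. The first of the sites below is from a window with 5 consensus sites near IGHVIII-26-1, at chr14:106765270-106765284 (minus strand), and the second from the WWC3 window at chrX:10087693-10087707 (minus strand).
IGHVIII-26-1: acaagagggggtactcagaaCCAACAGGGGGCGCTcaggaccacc
WWC3 intron: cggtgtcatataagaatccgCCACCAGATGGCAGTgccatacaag
Of the pairs of neighbours under 30 kb, 3 lay within these IGHV regions, all on the same strand. Without them the same-strand share under 30 kb was 54.0% (156 of 289 pairs).

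The share of shared peaks that were members varied between chromosomes. It was lowest on chromosome 21, at 35 of 312 (11.2%, 8.18 to 15.2), and on chromosome 6, at 11.4%, and highest on chromosome 13, at 74 of 346 (21.4%, 17.4 to 26.0), and chromosome 14, at 20.3%. The intervals of the lowest and the highest chromosome did not overlap, but these were picked as the extremes of all chromosomes. The gap between them is therefore no test of a difference between chromosomes.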

How the data were processed

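Only the 2 peak lists were analysed, and both values used from them were made by the authors. The authors aligned reads to hg19 with Bowtie2 2.2.3, discarded duplicate and poorly mapped reads, and ran PePr once per condition, with both CTCF replicates against IgG. The methods state a p-value cutoff of 0.05, whereas the largest deposited p-value was 9.997e-06 in both lists, so the lists and the percentiles within them cover only the smaller p-values. The study also shows a second control IgG replicate, not analysed here, and whether the control folds include it is not known. The deposited score was not used. The deposited fold enrichment over IgG gave strength and percentiles within a list, and the p-value deposited by the authors gave a second order. Positions were read from GRCh37, which has the hg19 chromosome lengths, and gene context from GENCODE 44 lifted to it. A promoter was within 1000 bp of a gene start, and exons took precedence over introns. Intervals of shares are Wilson intervals, those of medians come from order statistics and those of differences from Newcombe's method, all at 95%.

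Peaks are not replicates and no test was made. Members, lists and rules were chosen with earlier results of these data known. Regions named by rule were the 6 strongest members of each list, the 3 largest rises and falls by fold among members in the upper 50% of a list, the 3 strongest facing pairs, the 6 strongest at starts of protein-coding genes, the 6 most frequent site sequences, and the members nearest to HBB, NPRL3, HOXA13, HOXD13, PCDHA6 and H19. The members with several sites, the IGHV regions, the side of the peak centre, the comparisons within GC quartiles and the RRAGD pair were chosen after values were seen. Sequences in untranslated regions and on chromosome 8 were not printed. The search was tested on simulated data, in which 200 of 200 planted sites were found on their strand and 1000 of 1000 planted one-to-one pairs were recovered. The planted sites were exact and stood among A and T bases only. Finding them checks the code and not the rate of matches in genomic sequence. The software was samtools 1.23.1, pyfaidx 0.9.0.4 and Python 3.11.15 with scipy 1.17.1, pandas 2.3.3, numpy 2.4.6 and matplotlib 3.10.9.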

Additional observations from a re-analysis of the deposited data

How the results depend on the processing

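Of 121 values recomputed under other settings, 77 stayed within the counting interval of the reported value and 44 moved outside it. They cover shares, median percentiles, the median shift and rho of members only. Comparisons with other shared peaks, the side of the peak centre and the divergent and same-strand shares were not recomputed. Nor was strength by site sequence, CpG, gene context or G4 motif. The median shift and rho, the values that could change sign, stayed positive. The share of members was 8.54% with a 100 bp window, 18.6% with 400 bp, 19.1% over the whole control peak, 12.1% at the PDS centre, 17.1% in the 50% of each list with the smallest p-values and 46.1% with 1 mismatch allowed. With the 100 bp window, introns held 48.6% and intergenic sequence 33.3%. The median shift by fold was 2.93 points with 400 bp and 3.08 over the whole peak, where the PDS percentile was 70.6. Requiring an overlap of 50% of both peaks gave percentiles of 68.5 in the control and 70.6 in the PDS list. In the 50% with the smallest p-values, the percentiles were 77.2 and 78.7, rho 0.28, and the shares of promoters 10.5%, G4 motifs 8.61% and CpGs 46.8%.

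With 1 mismatch, promoters held 12.8%, introns 45.1% and intergenic sequence 32.1%, the percentiles were 63.2 and 64.1, the shift 0.65, and the shares of G4 motifs 8.63% and CpGs 36.8%. The 14 bp core left 12 peaks (0.049%), too few to compare, with 58.3% on the plus strand, 41.7% at promoters, 25% in introns, 25% in intergenic sequence, a PDS percentile of 48.8, a shift of 8.70 and a G4 motif in 50%, and its CpG share was not computed. Neighbours within 100 kb were convergent in 22% of pairs. Promoters held 5.97% within 500 bp, 12.2% within 2 kb and 5.27% with protein-coding genes only, when introns held 39.9% and intergenic sequence 46.8%. By p-value the PDS percentile was 65.4. Among members, G4 motifs were in 15.6% of whole control peaks and, with loops of up to 12 nt, in 14.3% of windows. Excluding members with more than 1 site kept all 12 values within their intervals.

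No paired analysis was possible because the replicates of a condition were merged before peaks were called. No replicate was left out for the same reason. Read depth is unknown, so whether a shift in rank exceeds the spread between replicates was not tested.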
